A study of Mus musculus with 14 samples.

Results

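The comparison described here is ES against NT in intestinal stem cells of mice in which Chrm3 was targeted for deletion, and it rests on 4 of the 14 libraries of the series: KO NT and KO ES, n = 2 each. The libraries were chosen by their labels, and every gene that passed a count filter was tested, 17364 of the 55335 genes counted. All 4 came from mice carrying the Lgr5-CreERT2-IRES-GFP allele together with Chrm3 flox/flox. The allele drives a tamoxifen-dependent Cre recombinase and a green fluorescent protein from the Lgr5 locus, so deletion is limited to Lgr5-expressing cells and their descendants. The KO mice received tamoxifen (TAM) for 3 days ahead of the ES procedure. WT libraries (NT and ES, n = 2 each), used for comparison, came from mice with the same alleles that received vehicle, so genotype and injection changed together and cannot be told apart. Cells were sorted on their green fluorescence, and polyadenylated RNA was made into strand-specific libraries. The abbreviations ES and NT are not spelled out in the sources used here, although the series title names chronic stress. Whether the 2 libraries of a group are from separate animals is not stated. The p-values therefore cover only library-to-library spread, which may be partly technical. That spread was estimated over all 8 libraries of the Chrm3 experiment, WT included, not over the 4 KO libraries alone. The remaining 6 libraries of the series compare mice of 2 and 18 months.

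Lgr5-positive cells divide at the base of the intestinal crypt and give rise to absorptive enterocytes and to the secretory lineages: mucus-making goblet cells, antimicrobial Paneth cells, hormone-making enteroendocrine cells and chemosensory tuft cells. Chrm3 encodes the M3 muscarinic receptor, through which acetylcholine raises intracellular calcium in epithelial cells. Sorted Lgr5-positive fractions can carry transcripts of neighbouring or newly forming secretory cells as well, and in such bulk RNA more cells of a type and more RNA per cell cannot be told apart.

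Total counts were 36.9 and 33.9 M in KO NT and 31.3 and 35.8 M in KO ES, within the range of 26.7 to 36.9 M over the 8 libraries of the Chrm3 experiment. Chrm3 itself (GRCm38 chromosome 13) had 343 and 254 counts in KO NT and 256 and 213 counts in KO ES, against 355 and 386 in WT NT and 357 and 291 in WT ES. The gene was therefore still counted in every KO library, and it did not pass between KO ES and KO NT (log2 fold change -0.27 ± 0.17, SE, adjusted p = 0.761). Counts over the whole gene are a weak check of the label, because the sources used here do not name the deleted stretch. The stem cell markers were present at high levels. In the 4 KO libraries Olfm4 was between 10880 and 12850 CPM and Lgr5 between 99.2 and 131 CPM. The 2 KO NT libraries differed from each other more than the libraries of the other 3 groups did: the chi-square of their counts per degree of freedom was 25.9, against 15.0 in KO ES, 13.5 in WT ES and 3.59 in WT NT.

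After deletion of Chrm3, ES was accompanied by higher levels of goblet cell, Paneth cell and interferon-stimulated genes. Levels of some digestive and absorptive genes of the mature enterocyte were lower. Of the 17364 genes tested, 72 rose (0.415%) and 17 fell (0.0979%), together 89 genes (0.513%) with an adjusted p under 0.05 in edgeR's quasi-likelihood test. The rises were modest and the falls larger: 10 of the 72 and 14 of the 17 changed at least 2-fold, with a median log2 fold change of 0.75 among genes that rose and -1.73 among those that fell. All 89 had values in KO ES that did not overlap those in KO NT, an ordering also seen in 17.1% (higher) and 16.1% (lower) of all genes tested. A total of 1493 genes (8.6%) had an unadjusted p under 0.05. Fitted on the KO libraries alone, 24 genes passed. In that fit 7 of the 14 goblet cell and 3 of the 12 Paneth cell calls described below passed. So did 4 of the 12 interferon and MHC class I calls and 3 of the 7 absorption calls. The count of calls moved strongly with single libraries, to 30 and 11 without KO ES replicate 1 or 2, 278 without KO NT replicate 1, and 18 and 17 without WT NT replicate 1 or 2, the last through the estimate of the spread that all 8 libraries share; it was 8 with no count filter. A set of 10 genes passed whichever of the 8 libraries was left out, all of them rises: Agr2, Rap1gap, Tff3, Muc2, Fcgbp, Ccl6, Spink4, Mmp7, Mptx2 and Guca2a.

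**Figure D1:**
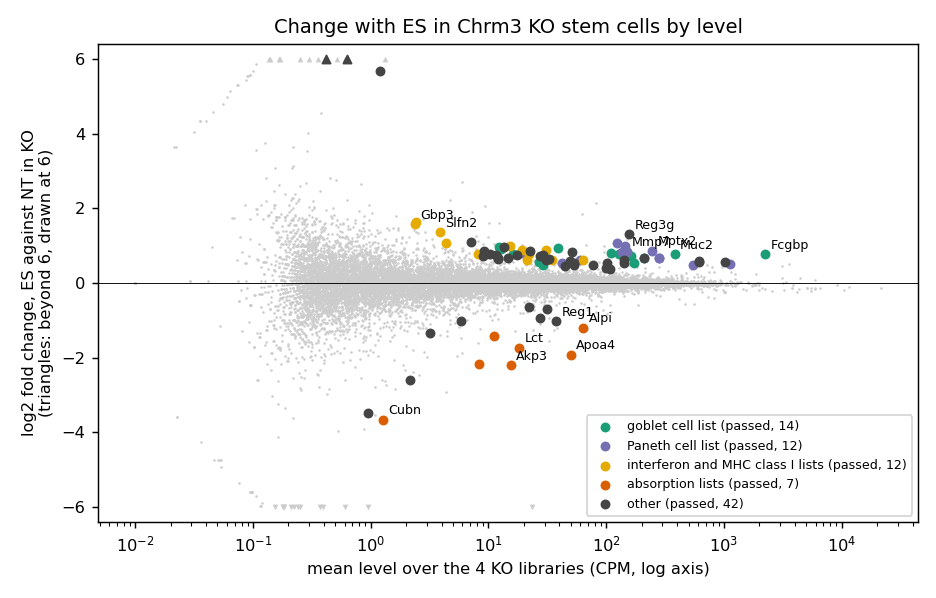
Log2 fold change of ES against NT in the 4 KO libraries (vertical axis) against mean level in CPM (horizontal log axis) for all 17364 genes tested; large symbols are genes with an adjusted p under 0.05, coloured by gene list, and triangles are genes beyond 6, drawn at 6. The 14 goblet cell, 12 Paneth cell and 12 interferon and MHC class I genes lie above 0 and the 7 absorption genes below, and 2 genes counted under split identifiers are not drawn among the large symbols.

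Goblet cell genes rose in KO ES. Of 28 measured members of the goblet cell list, 14 rose, 0 fell and 14 did not pass, all 28 had a log2 fold change above 0 (49.3% of all genes did), and their median was 0.61 beside -0.00 for all genes. Muc2 (chromosome 7, 141690340 to 141754693), the gel-forming mucin of intestinal mucus, was at 273 and 292 CPM in KO NT and at 482 and 479 CPM in KO ES. Its pair of ES values lay close together and well above both NT values, a log2 fold change of 0.77 ± 0.06 (adjusted p = 0.00042). Fcgbp (chromosome 7, 28071236 to 28120862), a large mucus protein, was the most abundant goblet gene of those that passed, going from 1735 and 1568 CPM to 2821 and 2836 CPM (0.78 ± 0.06, adjusted p = 0.000615). Atoh1 (chromosome 6, 64729125 to 64731245), the transcription factor that commits progenitors to the secretory lineages, went from 11.8 and 11.9 CPM to 18.6 and 21.9 CPM (0.77 ± 0.11, adjusted p = 0.0199). The summed level of the goblet cell list was 4225 and 4145 CPM in KO NT and 6419 and 6340 CPM in KO ES. In WT NT the sum was 6946 and 6823 CPM, above both KO groups.

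The other goblet genes that rose included some with roles in mucus making. Rep15, a Rab-binding protein, rose by 0.96 on the log2 scale, from 7.78 and 8.83 CPM to 15.5 and 16.7 CPM. Guca2a, which encodes the peptide guanylin, rose by 0.95 (24.2 and 28.6 to 52.7 and 48.9 CPM). Tff3, the trefoil peptide secreted with mucin, rose by 0.77 (97.1 and 92.1 to 169 and 153 CPM), and Agr2, the disulfide isomerase needed for mucin folding, rose by 0.68 (166 and 159 to 263 and 257 CPM). In these 4 genes the lowest ES library stood above the highest NT library. Bcas1 (0.90), Spink4 (0.82), the chemokine Ccl6 (0.80), the lectin Zg16 (0.71), the transcription factor Creb3l1 (0.56), Clca1 (0.55) and the secretory-cell stress sensor Ern2 (0.50) rose too. Spdef, a transcription factor of goblet cell maturation, stood at 0.53 and missed the threshold (adjusted p = 0.0627). Of the 14 genes, 9 and 7 kept an adjusted p under 0.05 without KO ES replicate 1 or 2, and 8 did without either WT NT library.

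Paneth cell genes rose as well. Of 28 members measured, 12 rose, 0 fell and 16 did not pass. All 28 had a log2 fold change above 0, with a median of 0.53. Mmp7 (chromosome 9, 7692090 to 7699585), the matrix metalloproteinase that activates pro-defensins, was at 101 and 113 CPM in KO NT and at 191 CPM in both KO ES libraries (0.83 ± 0.07, adjusted p = 0.000709). Mptx2 (chromosome 1, 173274382 to 173277777), a secreted pentraxin of Paneth cells, went from 176 and 173 CPM to 332 and 301 CPM (0.86 ± 0.06, adjusted p = 0.00042). Both genes had tight replicates, and both passed whichever library was left out. Habp2 rose by 0.80, the lysozyme gene Lyz2, which is also on the myeloid list, by 0.61, the colipase gene Clps by 0.53 and the lectin Itln1 by 0.52. The more abundant lysozyme gene Lyz1 was at 2553 and 3336 CPM in KO NT and at 4065 and 4369 CPM in KO ES, without passing (0.52 ± 0.10, adjusted p = 0.0627).

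Alpha-defensins, the small cationic peptides of Paneth cell granules, made up 6 of the 12. Defa22 (chromosome 8, 21162277 to 21163249) was at 63.5 and 94.5 CPM in KO NT and at 189 and 145 CPM in KO ES (1.08 ± 0.17, adjusted p = 0.0236). Defa21 was at 79.6 and 113 CPM and at 221 and 163 CPM (1.00 ± 0.16, adjusted p = 0.0236). Defa5 rose by 0.84, Defa37 and Defa36 by 0.67 each and Defa23 by 0.49. All 13 measured alpha-defensins were above 0, with a median of 0.67. Genes of this family can be close copies, which makes their separate values uncertain, although their transcripts were not compared here. Over the 250 bases before their start sites, Defa21 and Defa22 had 0 mismatches, as did Defa36 and Defa37. The same cluster on chromosome 8 held the risen Defa-ps7 (0.98), Gm15292 (0.85), Gm7849 (0.59), AY761184 (0.58) and Gm7861 (0.55). Replicates of KO NT were uneven here, with 26 of the 28 Paneth genes higher in replicate 2, and 27 of the 28 had a lower mean in KO NT than in WT NT. The summed level of the list was 9041 and 11500 CPM in KO NT and 14890 and 14280 CPM in KO ES, and 3 of the 12 calls stayed without either KO ES library, as did 3 without either WT NT library and 8 without WT ES replicate 1.

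Interferon-stimulated and antigen-presentation genes rose in KO ES. Over lists of type I interferon-stimulated genes, interferon-inducible GTPases and MHC class I presentation, 12 of 85 measured genes rose, 0 fell and 73 did not pass, with 79 above 0 and a median log2 fold change of 0.41. The GTPases had the highest median of the 3 lists (0.74, 4 of 16 rose), then the type I interferon-stimulated genes (0.46, 5 of 48) and MHC class I presentation (0.26, 3 of 21). Type I and type II interferons act on promoter elements called ISRE and GAS, and the GTPases restrict intracellular pathogens. For 9 of the 12 genes RefSeq (GRCm38.p6) gave a promoter window, and the 250 bases before the start site were searched on both strands for the ISRE core (GAAA, any 2 bases, GAAA) and the GAS element TTCNNNGAA. A gene was counted if any of its windows held the element, whereas the share over all windows is per window. The ISRE core was found in 5 of the 9 genes (55.6%) and in 27 of 64 tested list members with a window (42.2%). Over all 32851 windows its share was 2.98%. It was present in 7 of the 49 genes with a window that rose (14.3%) and in 1 of the 14 that fell (7.14%). The GAS element was found in 3 of the 9 genes (33.3%) and in 13 of the 64 list members (20.3%). Its share was 12.2% of genes with a window that rose, 7.14% of those that fell and 7.02% of all windows. The windows of 4 of the risen genes are shown to let these elements be seen in place, 5′ to 3′ on the gene's strand, with capitals marking the ISRE core on either strand; in Gbp3 and Oas1a a pair of overlapping matches forms 1 longer run. Gbp3 lies at chr3:142559794-142560043 (+), Tgtp2 at chr11:49064213-49064462 (-), Igtp at chr11:58199306-58199555 (+) and Oas1a at chr5:120907526-120907775 (-). Another window of Gbp3 held no ISRE core and is not shown.
Gbp3: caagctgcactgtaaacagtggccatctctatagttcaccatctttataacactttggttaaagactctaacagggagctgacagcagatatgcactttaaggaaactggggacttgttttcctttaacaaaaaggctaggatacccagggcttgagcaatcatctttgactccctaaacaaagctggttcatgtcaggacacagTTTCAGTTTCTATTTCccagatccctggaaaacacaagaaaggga
Tgtp2: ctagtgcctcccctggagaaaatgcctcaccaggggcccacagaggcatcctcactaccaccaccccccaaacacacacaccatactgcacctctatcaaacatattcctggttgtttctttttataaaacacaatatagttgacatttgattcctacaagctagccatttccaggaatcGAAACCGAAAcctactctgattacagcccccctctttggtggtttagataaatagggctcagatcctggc
Igtp: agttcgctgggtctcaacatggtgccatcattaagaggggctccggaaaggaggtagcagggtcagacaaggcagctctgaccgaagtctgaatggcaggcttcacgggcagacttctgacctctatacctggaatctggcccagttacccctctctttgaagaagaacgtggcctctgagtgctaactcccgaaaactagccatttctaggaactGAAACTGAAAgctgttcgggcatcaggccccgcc
Oas1a: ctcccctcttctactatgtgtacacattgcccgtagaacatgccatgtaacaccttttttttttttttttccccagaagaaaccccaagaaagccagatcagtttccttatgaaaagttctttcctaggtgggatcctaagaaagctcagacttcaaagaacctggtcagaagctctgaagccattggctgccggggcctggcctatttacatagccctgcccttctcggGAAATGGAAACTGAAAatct

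Among the GTPases, Gbp3 (chromosome 3, 142560026 to 142573209) had 1.00 and 1.40 CPM in KO NT and 3.43 and 3.66 CPM in KO ES. It rose by 1.58 ± 0.25 (adjusted p = 0.0256), from a low level. Igtp (chromosome 11, 58199556 to 58207591) was at 16.3 CPM in both KO NT libraries and at 29.5 and 26.9 CPM in KO ES (0.79 ± 0.11, adjusted p = 0.0199). Gbp9 rose by 1.07 and Tgtp2 by 0.99, the latter from 10.9 and 9.56 CPM to 21.6 and 19.1 CPM. Gbp and Tgtp genes have close copies, which makes their counts uncertain.

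Zbp1, a sensor of Z-form nucleic acids, had the largest rise among the interferon-stimulated genes that passed (1.62 ± 0.30, adjusted p = 0.0448), at 1.56 and 0.789 CPM in KO NT and 3.90 and 3.49 CPM in KO ES. Slfn2, a Schlafen family member, went from 2.32 and 2.00 CPM to 5.27 and 5.82 CPM (1.36 ± 0.19, adjusted p = 0.0182). Oasl2, of the family of 2′-5′-oligoadenylate synthetases, went from 21.8 and 21.4 CPM to 35.7 and 44.1 CPM (0.89 ± 0.13, adjusted p = 0.0199). Its relatives Oas1g (0.77) and Oas1a (0.62) rose too, with the caution that Oas1 genes are close copies. Ddx60 (0.87), Ly6e (0.61) and Apobec3 (0.38), which are interferon-stimulated but stood on none of the lists, were also among the rises. Ifi44 lay just outside the threshold (1.13 ± 0.21, adjusted p = 0.0508).

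In antigen presentation, Nlrc5 (0.87 ± 0.14), the transactivator of MHC class I genes, Tap1 (0.61 ± 0.08), a subunit of the peptide transporter, and H2-Q7 (0.62 ± 0.11), a non-classical class I molecule, rose. Tap1 stood at 50.7 and 49.9 CPM in KO NT and at 78.0 and 76.0 CPM in KO ES, and Nlrc5 at 14.6 and 12.5 CPM and at 25.8 and 23.9 CPM. The more abundant B2m and H2-K1 had smaller log2 fold changes, 0.22 and 0.26, and did not pass. H2-Aa, an MHC class II chain, rose by 0.53, 1 of 10 class II genes measured. Of the 85 genes, 3 rose in edgeR's test without KO ES replicate 1 (55 at an unadjusted p under 0.05) and 0 without replicate 2 (47). Without either WT NT library 0 rose (56 at an unadjusted p under 0.05 in each case), and without KO NT replicate 2, 7 rose. Beside these genes, the summed level of T cell and intraepithelial lymphocyte markers was 67.0 and 83.0 CPM in KO NT and 78.5 and 94.0 CPM in KO ES, and the part of such cells in the interferon genes was not tested.

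**Figure D2:**
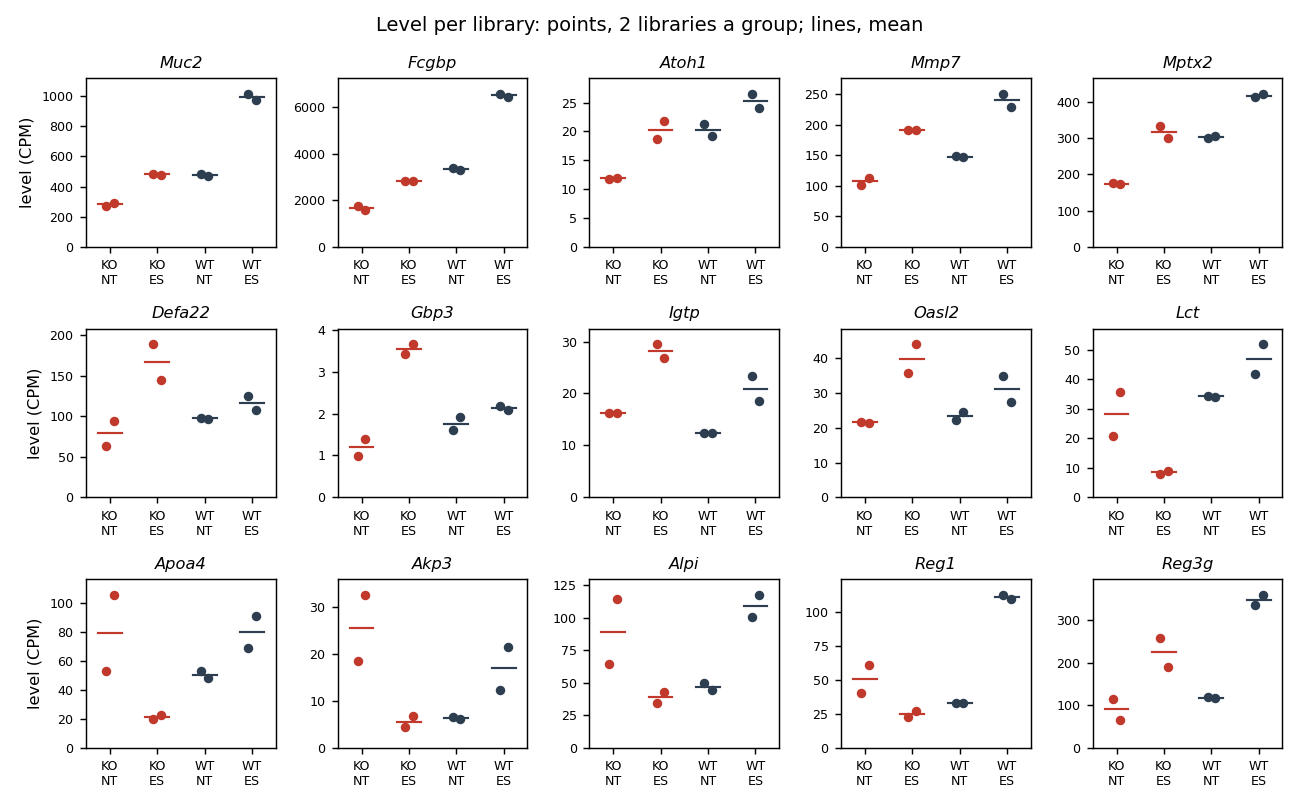
Level in CPM (vertical axes, from 0) of 15 genes in each library, with KO in red, WT in dark blue, points for the 2 libraries of a group and a line at their mean. Muc2, Fcgbp, Mmp7, Mptx2 and Igtp were higher in ES than in NT in both genotypes, whereas Apoa4, Akp3, Alpi and Reg1 were lower in ES in KO and higher in ES in WT.

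Other rises included defence and epithelial genes. Reg3g (chromosome 6, 78466269 to 78468872), a bactericidal lectin, was at 115 and 65.9 CPM in KO NT and at 258 and 191 CPM in KO ES (1.31 ± 0.21, adjusted p = 0.0236). It was 1 of 26 antimicrobial and inflammatory genes that rose, while Reg1 on the same list fell. Adgrd1, an adhesion receptor, rose by 1.09, Ccl9, a chemokine, by 0.84, St3gal1, a sialyltransferase, by 0.76, Rap1gap, which inactivates the small GTPase Rap1, by 0.75, and Galnt5, which starts O-linked glycans, by 0.68. Rap1gap had 21.9 and 21.7 CPM in KO NT and 36.6 and 36.5 CPM in KO ES. The smallest log2 fold changes that passed were those of Apobec3 (0.38), Krt7, a keratin (0.40), Tspan13 (0.47), Rnase4 (0.47) and Slc39a4, a zinc importer (0.49).

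A group of 3 transcripts was at or near 0 in KO NT and present in KO ES. Gm4779 (chromosome X, 101790053 to 101794423, minus strand) had 0 and 3 counts in KO NT and 58 and 102 counts in KO ES, a ratio of 56.0 with a 95% exact interval of 18.8 to 274 that covers counting error only. Its neighbour 8030474K03Rik (chromosome X, 101794656 to 101798642, plus strand) had 0 counts in both KO NT libraries and 29 and 56 in KO ES, at least 29.8-fold higher against a floor of 3 counts over the group. Both had 0 counts in all 4 WT libraries, with and without ES. C330011M18Rik, antisense to Rfx1, had 0 counts in both KO NT libraries and 28 and 27 in KO ES, at least 19.3-fold higher against the same floor, but 17 to 32 counts in each WT library. These features were chosen after their values were seen, and their calls were fragile. In DESeq2, Gm4779 and 8030474K03Rik did not pass (adjusted p = 1 each), while C330011M18Rik did. Neither 8030474K03Rik nor C330011M18Rik passed in any of the 8 fits that left out 1 library (adjusted p of 0.0539 to 0.233 and 0.0623 to 0.171 in edgeR). Gm4779 did not pass without KO ES replicate 2 (0.0959).

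Some genes of digestion and absorption fell in KO ES. Over lists of brush border digestion, nutrient absorption, lipid transport and xenobiotic and bile acid handling, 7 of 92 measured genes fell, 0 rose and 85 did not pass, with 77 below 0 (50.6% of all genes were) and a median log2 fold change of -0.29. Lct (chromosome 1, 128284756 to 128328318), the enzyme that splits milk sugar, was at 20.7 and 35.5 CPM in KO NT and at 8.0 and 8.88 CPM in KO ES (-1.73 ± 0.22, adjusted p = 0.0123). Apoa4 (chromosome 9, 46240696 to 46243459), an apolipoprotein of chylomicrons, went from 53.2 and 106 CPM to 19.5 and 22.3 CPM (-1.92 ± 0.26, adjusted p = 0.0154). In both genes the ES libraries agreed closely, and the NT libraries differed from each other, replicate 2 being the higher. The summed level of the 4 lists was 5827 and 7575 CPM in KO NT and 5609 and 6056 CPM in KO ES, with overlapping groups.

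The intestinal alkaline phosphatases Akp3 (chromosome 1, 87124973 to 87127912) and Alpi (chromosome 1, 87098002 to 87101606), neighbours that remove phosphate from lipopolysaccharide and nutrients at the brush border, fell together. Akp3 went from 18.4 and 32.6 CPM to 4.35 and 6.67 CPM (-2.19 ± 0.32, adjusted p = 0.0199) and Alpi from 64.4 and 114 CPM to 34.4 and 43.1 CPM (-1.20 ± 0.22, adjusted p = 0.0420). Cyp3a11, a drug- and bile acid-metabolising cytochrome, went from 8.59 and 18.5 CPM to 2.83 and 3.12 CPM (-2.17 ± 0.36, adjusted p = 0.0275). Slc6a19, the main carrier of neutral amino acids, went from 12.1 and 20.5 CPM to 5.62 and 6.55 CPM (-1.41 ± 0.24, adjusted p = 0.0354). Cubn, the receptor for vitamin B12 bound to intrinsic factor, had 1.72 and 2.97 CPM in KO NT and 0.159 and 0.199 CPM in KO ES (-3.66 ± 0.57, adjusted p = 0.0236), the largest fall on these lists. AC116503.1, an antisense transcript that overlaps Apoa4, fell with it (-3.47 ± 0.65, adjusted p = 0.0494), and the sources used here do not say how strand entered the counting.

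The fall was not shared by every enterocyte gene. Sis, the sucrase-isomaltase of the brush border, was at 191 and 380 CPM in KO NT and at 214 and 299 CPM in KO ES (-0.15 ± 0.26, adjusted p = 0.958), and its groups overlapped. Fabp1, a fatty acid-binding protein, reached -1.25 on the log2 scale without passing (adjusted p = 0.0543). None of 18 microvillus structure genes passed in edgeR's test, with 2 at an unadjusted p under 0.05 and 0 by either DESeq2 or limma-voom, and their median was 0.02. The size of the absorption effect followed the KO NT libraries: 87 of the 92 genes were higher in replicate 2 than in replicate 1, and the median was -0.54 without replicate 1, with 42 genes lower, and -0.07 without replicate 2, with 7 lower. KO NT replicate 2 also had the highest share of mitochondrial counts, 8.74%, against 6.42% to 7.53% in the other 7 libraries of the experiment, and the part of this in the falls was not tested. The 7 genes named above passed with either KO NT library left out. With KO ES replicate 1 or 2 left out, 0 of the 92 passed in edgeR's test (31 and 33 lower at an unadjusted p under 0.05), and with WT NT replicate 1 or 2 left out, 1 and 0 passed (38 in each case). In limma-voom 3 of the 7 passed (Akp3, Apoa4 and Lct), and in DESeq2 all 7.

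**Figure D3:**
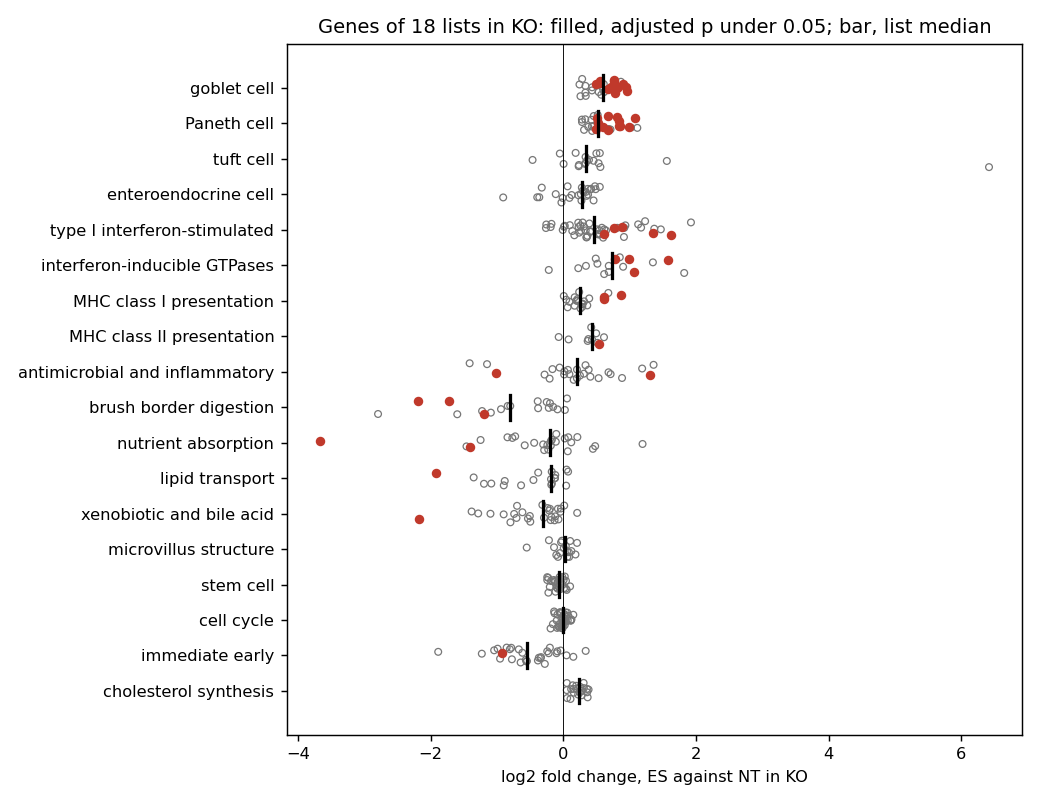
Log2 fold change of ES against NT in KO (horizontal axis) for the members of 18 gene lists (rows), with filled points for genes with an adjusted p under 0.05, open points for the others and a bar at each list's median. The goblet and Paneth cell lists lie wholly above 0, the absorption lists lie mostly below 0, and stem cell and cell cycle genes lie close to 0; the open tuft cell point beyond 6 is Chat, which had 0 CPM in both KO NT libraries.

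Outside digestion the falls were few. Reg1 (chromosome 6, 78422711 to 78428667), a regenerating-family lectin, was at 40.3 and 60.9 CPM in KO NT and at 22.9 and 27.0 CPM in KO ES (-1.01 ± 0.16, adjusted p = 0.0236). Nr4a2, an immediate early nuclear receptor, went from 30.2 and 42.0 CPM to 16.6 and 21.2 CPM (-0.93 ± 0.16, adjusted p = 0.0354). Among 30 immediate early genes it alone passed, while 27 were below 0 and the median was -0.55. That list again had 28 of 30 genes higher in KO NT replicate 2 than in replicate 1, 18 lower calls without replicate 1 and 1 without replicate 2, with medians of -0.64 and -0.14. In 29 of the 30 genes the KO NT mean was above the WT NT mean, and replicate 2 was the library with the high mitochondrial share. Fos was at 682 and 980 CPM in KO NT and at 595 and 693 CPM in KO ES, with overlapping groups. Asb4, a ubiquitin ligase adaptor, fell by 2.58 on the log2 scale, Mylk3, a myosin light chain kinase, by 1.34, Epha2, an ephrin receptor, by 0.69 and Pbld1 by 0.65. The clone-named AC158975.2 fell by 1.01.

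The remaining 2 falls, Nnt and Fam220a, were carried by identifiers that share a gene with an overlapping identifier on the same strand. Nnt (chromosome 13) encodes the proton-translocating transhydrogenase of mitochondria. The identifier that fell (ENSMUSG00000116207) had 2745 and 657 counts in KO NT and 0 in both KO ES libraries, while ENSMUSG00000025453 had 316 and 1720 counts in KO NT and 4158 and 4661 counts in KO ES. In WT the first identifier had 1370 and 3293 counts in NT and 0 in both ES libraries. Summed over both, Nnt had 3061 and 2377 counts in KO NT and 4158 and 4661 counts in KO ES and rose by 0.77 ± 0.07 (adjusted p = 0.001), whereas WT had -0.11 (adjusted p = 0.471), and the difference of these effects was 0.88 (adjusted p = 0.0107). Because the identifier that fell was present in all 4 NT libraries and at 0 in all 4 ES libraries, these summed values are uncertain. Counting, annotation and strain background were not tested, nor was their part in other differences between ES and NT. Fam220a, summed in the same way, had 516 and 445 counts in KO NT and 497 and 505 counts in KO ES and did not pass (0.13 ± 0.11, adjusted p = 0.847). Summing every such group of identifiers gave 105 calls, 80 higher and 25 lower: 87 of the 89 remained in the same direction, Nnt turned, Fam220a was lost and 17 others were gained.

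**Figure D4:**
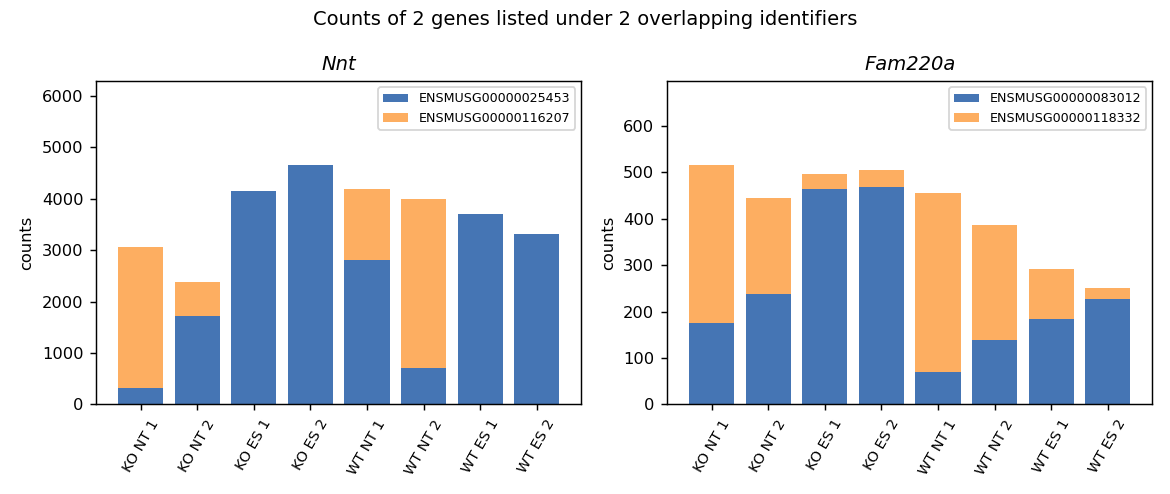
Counts per library (vertical axis, from 0) of Nnt and Fam220a, stacked by the 2 identifiers under which each gene was counted. In ES libraries of both genotypes the counts of Nnt stand under 1 identifier only, and the summed height in KO rises from 3061 and 2377 to 4158 and 4661 counts.

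Set beside WT, the rises in KO pointed the same way and the falls did not. In WT, ES raised 366 genes (2.11%) and lowered 241 (1.39%). Of the 72 genes that rose in KO, 69 were also above 0 in WT and 33 also passed there (45.8% of the 72 and 9.02% of the 366). Their median log2 fold change was 0.75 in KO and 0.43 in WT, a contrast that the choice of genes by their KO values favours. Over all genes tested the WT median was -0.0034. The KO and WT tests share their estimate of the spread for each gene, so passing in both is not independent. Chosen by WT instead, the 366 genes that rose there had a median of 0.55 in WT and 0.10 in KO, with 69.1% of one sign in both, and the 241 that fell had -0.42 and -0.06, with 73.0%. Of the 17 genes that fell in KO, 10 were above 0 in WT, with a median of 0.09 there. The 2 that fell in both were the split identifiers of Nnt and Fam220a, and Reg1, Alpi and Akp3 fell in KO and rose in WT.

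A test of KO minus WT for the ES effect passed for 19 genes (0.109%), of which 6 had also passed in KO: Clca1 among the rises and Reg1, Alpi, Akp3, Lct and Apoa4 among the falls. Clca1, a goblet cell protein that processes mucin, was at 124 and 156 CPM in KO NT and 202 and 207 CPM in KO ES, but at 301 and 300 CPM in WT NT and 932 and 886 CPM in WT ES (difference -1.05 ± 0.13, adjusted p = 0.0222). Its rise in KO was thus smaller than in WT. Reg1 was at 32.8 and 33.0 CPM in WT NT and 113 and 110 CPM in WT ES, the reverse of its order in KO (difference -2.77 ± 0.22, adjusted p = 0.00197). For Akp3 the difference was -3.60 ± 0.47 (adjusted p = 0.0246), with 6.63 and 6.01 CPM in WT NT and 12.3 and 21.5 CPM in WT ES. Its level in KO NT, 18.4 and 32.6 CPM, was already above that of WT NT. Reg1, Alpi and Apoa4 too were higher in both KO NT libraries than in either WT NT library. For Apoa4 the margin was small in KO NT replicate 1 (53.2 CPM, against 52.7 and 48.4 CPM in WT NT). Lct, by contrast, had 34.4 and 33.9 CPM in WT NT, near KO NT replicate 2 (35.5 CPM) and above KO NT replicate 1 (20.7 CPM). In WT ES it had 41.9 and 51.8 CPM (difference -2.18 ± 0.30, adjusted p = 0.0352). The test of the difference passed for 0 of the 12 interferon and class I genes in edgeR (7 at an unadjusted p under 0.05) and in limma-voom and for 1 in DESeq2, although Gbp3 had a log2 fold change of 1.58 in KO and 0.29 in WT (difference adjusted p = 0.227) and Slfn2 1.36 and 0.47 (adjusted p = 0.272). Without either WT NT library the count of differing genes was 0 or 2, with either KO ES library left out it was 2, and without KO NT replicate 1 it was 363 and without replicate 2 it was 53.

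**Figure D5:**
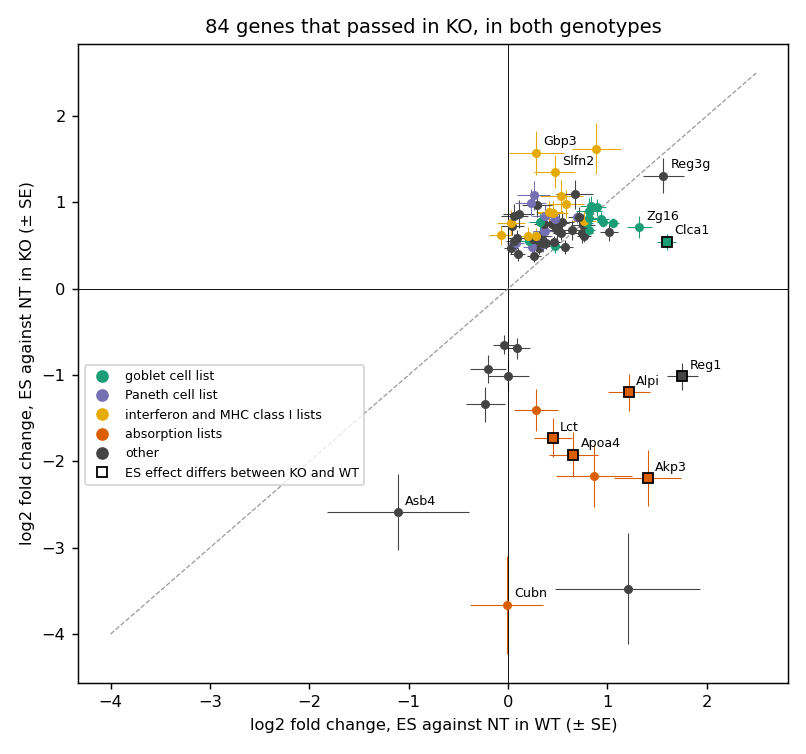
Log2 fold change of ES against NT in WT (horizontal axis) and in KO (vertical axis), each ± SE, for 84 genes that passed in KO, coloured by list; squares mark genes whose ES effect differed between the genotypes, and the dashed line marks equal effects. Most rises lie in the upper right, and Reg1, Alpi, Akp3, Lct and Apoa4 lie at the lower right; 2 split identifiers and 3 transcripts at or near 0 counts in KO NT are not drawn.

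Stem cell and proliferation genes showed no call. Of 29 stem cell genes, 0 passed in edgeR, DESeq2 or limma-voom. The log2 fold change was below 0 in 22 of them, and all 6 with an unadjusted p under 0.05 in edgeR were lower. In 10 the KO ES values lay wholly below those of KO NT and in 0 wholly above (16.1% and 17.1% of all genes tested). The median was -0.07, whereas 14 fell in WT with a median of -0.31. Lgr5 was at 131 and 120 CPM in KO NT and 113 and 99.2 CPM in KO ES (-0.24 ± 0.08, adjusted p = 0.346). Ascl2, a transcription factor of stem cell identity, was at 35.2 and 28.3 CPM and at 30.3 and 30.4 CPM (-0.07 ± 0.10, adjusted p = 0.948). The difference of the ES effects in Ascl2 was 0.67 (adjusted p = 0.133) and did not pass, whereas it passed for 1 of the 29 genes, Scn2b, a sodium channel subunit (0.01 in KO and -0.75 in WT, difference 0.76 ± 0.12, adjusted p = 0.0473). Mki67, a proliferation marker, had a log2 fold change of -0.02 ± 0.10, and 0 of 37 cell cycle genes passed in the 3 tools, with 2 at an unadjusted p under 0.05.

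The other secretory lineages and several stress pathways had 0 calls in edgeR. In tuft cell genes 16 of 18 were above 0 with a median of 0.35, 6 at an unadjusted p under 0.05, 1 passing in DESeq2 and 0 in limma-voom. In enteroendocrine genes 19 of 26 were above 0, 4 at an unadjusted p under 0.05 and 0 in the other tools. All 22 genes of cholesterol synthesis had a log2 fold change above 0, with a median of 0.24, 12 at an unadjusted p under 0.05, 1 passing in DESeq2 and 0 in limma-voom. Glucocorticoid-induced genes (21 tested) had 7 at an unadjusted p under 0.05, 1 in DESeq2 and 0 in limma-voom, and the unfolded protein response (28 tested) had 9, 0 and 0. Targets of p53 (25 tested) had 4, 0 and 0, and p38 MAPK pathway genes (19 tested) 4, 1 and 0. Among 19 muscarinic and cholinergic genes 4 had an unadjusted p under 0.05, with 2 passing in DESeq2 and 0 in limma-voom. Chrm1, the M1 muscarinic receptor, was at 2.24 and 2.22 CPM in KO NT and 5.46 and 3.58 CPM in KO ES (1.01 ± 0.25, adjusted p = 0.152 in edgeR).

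Markers of other cell types were measured in the same libraries. B and plasma cell markers summed to 4.87 and 4.85 CPM in KO NT and 9.77 and 11.5 CPM in KO ES, with 1 of 11 at 0 in all KO libraries. Myeloid markers summed to 75.6 and 82.7 CPM in KO NT and to 107 CPM in both ES libraries. That sum includes Lyz2, which is on both the myeloid and the Paneth cell list. Its counts cannot be assigned to either cell type here. Without Lyz2 the sums were 35.1 and 28.5 CPM in KO NT and 34.6 and 34.7 CPM in KO ES, and the groups overlapped. Stromal and vascular markers stood at 11.04 and 9.43 CPM and at 11.3 and 9.39 CPM, with 9 of 18 at 0. The B and plasma cell sum was thus higher in both ES libraries, as the interferon-stimulated and MHC genes were, while the T cell sums given above overlapped between the groups. The part of these cells in that rise was not tested.

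In the separate ageing table the genes that changed with ES in KO had no single direction. Of 16807 genes tested, 4.42% were higher and 3.42% lower in old. Among 70 of the genes that rose in KO and were tested there, 10 were higher in old and 11 lower, and among 16 that fell, 1 was higher and 2 were lower. Fcgbp (0.64), Zg16 (1.42) and Tff3 (0.46) were higher in old, whereas Clca1 (-1.17), Mptx2 (-0.63) and Oasl2 (-0.64) were lower, as log2 fold changes of old against young. H2-Aa was higher in old by 2.79, and Nr4a2, which fell in KO ES, was higher by 1.13.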

How the data were processed

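The authors deposited whole-number counts per Ensembl gene, not normalized, in 1 table for the 8 Chrm3 libraries and 1 for the 6 ageing libraries. Per the submitters' processing notes the build was mm10 and FastQC 0.11.2 was used. For the aligner and the counting tool, nothing is given in the sources used here. NT columns are named Ctrl in the table. Genes passing edgeR's filterByExpr were scaled by TMM and tested in edgeR 4.0.16 with the quasi-likelihood F test, 1 mean per group over the 8 libraries, and Benjamini-Hochberg adjustment over 17364 genes at 0.05. The ± after a log2 fold change is an approximate standard error derived from the change and its F value. Depth limits precision most for genes of a few CPM. Positions are from GENCODE M21 (GRCm38). Full statistics went to the 12 largest named changes in each direction with a mean of at least 1 CPM, to up to 4 genes by p of each list with a passing member, and to Chrm3, Lgr5, Ascl2, Olfm4 and Mki67; other genes are given as examples. Libraries, lists (38) and rules were chosen with earlier results of these data known. Alternatives were RLE scaling, no count filter, a 1 CPM filter, limma-voom (limma 3.58.1), DESeq2 1.42.0, the KO libraries alone, a replicate block, a threshold of 0.1 and leaving out each library. The older quasi-likelihood form and summed identifiers (90 groups of overlapping identifiers of 1 symbol and strand) were added after seeing the data.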

Additional observations from a re-analysis of the deposited data

Results flagged for a closer look

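For 9 genes that are described above or had the smallest p, the ES effect differed between KO and WT by the test of the difference itself (edgeR's quasi-likelihood test, n = 2 libraries a group, values as log2 KO minus WT). The differences were -2.77 for Reg1, -2.42 for Alpi, -3.60 for Akp3, -2.18 for Lct, -2.58 for Apoa4 and -1.05 for Clca1. Klf10, an early response transcription factor, differed by -1.68 (adjusted p = 0.00894), with 83.2 and 114 CPM in KO NT, 65.0 and 63.5 CPM in KO ES, 40.3 and 39.8 CPM in WT NT and 82.7 and 85.2 CPM in WT ES. Slc40a1, the iron exporter ferroportin, differed by -2.50 (adjusted p = 0.0115), with 12.9 and 19.9 CPM in KO NT, 9.36 and 10.3 CPM in KO ES, 7.01 and 6.55 CPM in WT NT and 21.03 and 25.6 CPM in WT ES. Per1, a circadian repressor, differed by -1.24 (adjusted p = 0.0115), with 30.9 and 34.8 CPM in KO NT, 24.7 and 27.3 CPM in KO ES, 18.7 and 17.1 CPM in WT NT and 32.5 and 34.5 CPM in WT ES. In these 3 genes the KO NT libraries stood above the WT NT libraries.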

How the results depend on the processing

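Each value below counts genes, in the order changed in KO, higher, lower, on a gene list, and differing between the genotypes, then those of the changed genes that passed the same way in WT and, where given, in old. These counts were 89, 72, 17, 49, 19, 35 and 12 as reported. With no count filter they were 8, 8, 0, 7, 0, 8 and 2, with DESeq2 226, 152, 74, 108, 211, 91 and 31, and with the KO libraries alone 24, 19, 5 and 17, with 3 in old. At a threshold of 0.1 they were 188, 129, 59, 82, 49 and 72. A 1 CPM filter gave 28 lower, limma-voom 6 lower and 8 differing, and the older quasi-likelihood form 11 differing. With the replicate block, for numbers that the labels do not say mark a shared origin, the counts were 206, 135, 71, 95, 104, 67 and 25. The same-numbered deviations correlated at 0.43 between KO NT and KO ES and at 0.02 to 0.18 between the other groups. Leaving out each library gave 11 to 278, 11 to 122, 0 to 156, 10 to 126, 0 to 363, 8 to 64 and 2 to 32, with the remaining library of a group assumed to vary like the other groups. Fam220a turned to 0.13 when its identifiers were summed (adjusted p = 0.847). All 89 genes passed under RLE scaling and with the replicate block, 87 in DESeq2, 72 in limma-voom and 22 with the KO libraries alone. Just inside the threshold were Lyz2 (adjusted p = 0.048), Krt7 (0.0488), Oas1g (0.0492) and AC116503.1 (0.0494), and just outside were Ifi44, H2-Q6, Mov10 and Sprr2a1 (0.0508 each).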
